A study of Mus musculus with 6 samples.

Results

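The genes described here are the cadherins and protocadherins measured in astrocytes of the upper and deep layers of the mouse neocortex. They were taken as every row of the expression table whose symbol is that of a numbered classical or atypical cadherin, a protocadherin, a Celsr, Fat or Dachsous gene or a calsyntenin, and 104 of the 43383 rows met this rule. Upper-layer astrocytes (ULAs, layers II–IV) and deep-layer astrocytes (DLAs, layers V and VI) were GFP-positive cells sorted from the somatosensory area of male Aldh1l1-eGFP mice at an age of 4 weeks. This transgene places GFP under the control of the Aldh1l1 gene, which is active in astrocytes, and it was carried by every animal. Neither library type includes layer I, meninges or the white matter of the corpus callosum, and cells close to where layers IV and V meet are missing from both. There were 3 libraries of ULAs and 3 of DLAs, 1 of each from each of 3 brains, and the question was which genes differ between the layers. Depth was 24.4 to 26.7 M reads in ULA libraries and 19.7 to 29.6 M reads in DLA libraries. Values are RPKM, that is, reads per kilobase of mRNA and per M mapped reads, and RPM below stands for reads per M mapped reads without the scaling to length.

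Cadherins are transmembrane proteins that bind one another across cell contacts through calcium-dependent extracellular repeats. Classical cadherins bind mostly to their own kind and are tied to the actin cytoskeleton by catenins. The clustered protocadherins are made from arrays of variable first exons, each with its own promoter, and in the alpha and gamma arrays each variable exon is spliced to a set of constant exons shared by the whole array. Different cells use different combinations of them, and in the nervous system they are known for self-recognition of neurites and, for the gamma cluster, for contacts between neurons and astrocytes. Non-clustered protocadherins of the delta groups, the Celsr, Fat and Dachsous giants of planar polarity, and calsyntenins of synapses make up the rest of the family.

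The labelled cell type held in all 6 libraries. The summed RPKM of 8 astrocyte genes was at least 9475, against at most 1.99 for 4 endothelial genes (the endothelial cadherin Cdh5 was at most 0.01) and 10.24 for 8 general neuronal genes. Lists of layer neurons were higher. The sum of 4 upper-layer genes, most of it Rorb, was 119.8 to 123.1 in ULAs and 86.63 to 129.8 in DLAs. That of 5 deep-layer genes was 27.87 to 33.35 in ULAs and 23.37 to 36.43 in DLAs. Of these lists 2 and 3 genes were tested and none was called. The part of neurons in these sums was not tested. Oligodendrocyte genes were present and unequal. The summed RPKM of 7 of them was 64.16 to 103.5 in ULAs and 120.2 to 137.1 in DLAs, and 5 of the 6 that could be tested were higher in DLAs. In bulk samples like these, fewer cells of a type and less RNA per cell cannot be told apart.

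Of the 104 members, 53 averaged 1 RPKM or more across the libraries and were tested, and 51 lay below. Among the latter, 46 were under 1 RPKM in every library and 3 were listed at 0 in all 6, which were Fat2, Pcdhb1 and Pcdh12 (chosen after their values were seen). A count of 0 allows up to 3 reads, which in the shallowest library is 0.011, 0.062 and 0.027 RPKM for these 3 mRNAs (counting error only). Tested members were found in every subfamily except the alpha cluster, where none of the 14 rows reached the minimum.

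How the values were made bears on how members can be read. In the table, RPKM multiplied by mRNA length (the RPM credited to a row) was at least as large for a host gene as for a gene lying inside one of its introns in 86 of 86 pairs on the same strand and in 135 of 135 pairs on opposite strands, in all 6 libraries and within the rounding of the printed values. For the next gene downstream, which does not overlap the host, the same held in 76 of 107 pairs (71%). This is the pattern of values that count reads on either strand over the whole span of a gene, introns included, and divide them by the length of its exons. The sources used here do not describe the counting. Where genes lie inside one another, a value holds the reads of both. This was worked out after the values were seen and concerns the clusters and 1 long cadherin most.

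Members named beyond the rule stated with the processing were chosen after their values were seen. Outside the gamma cluster, 12 members had a mean of at least 10 RPKM and 5 a mean of at least 50. The highest was Pcdh9, a delta1 protocadherin, at 111.4, 169.9 and 84.6 RPKM in the ULAs and 106.6, 101.4 and 90.4 RPKM in the DLAs of brains 1, 2 and 3. The layers overlapped, and 1 library, the ULAs of brain 2, stood above the rest. Pcdh9 has 4 exons spread over 875 kb, and 3.75% of its reads belonged to genes lying inside it. Its level cannot be set against that of a compact gene, because reads from introns enter the value.

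Among classical cadherins, the type I member Cdh2 (N-cadherin, the main adherens junction cadherin of neural cells) had 69.49, 72.93 and 57.13 RPKM in ULAs and 58.76, 52.21 and 58.58 RPKM in DLAs. Its type I relative Cdh4 (R-cadherin) had a mean of 11.5 RPKM, whereas Cdh1, Cdh3 and Cdh15 (E-, P- and M-cadherin of epithelia and muscle) had at most 0.37 RPKM in any library. Of 13 type II cadherins, 5 were tested and 4 of these had a mean between 35.8 and 65.9 RPKM. The highest was Cdh10, at 69.89, 72.55 and 65.88 RPKM in ULAs and 62.96, 53.33 and 70.77 RPKM in DLAs. Cdh20, Cdh19 and Cdh11 followed in that order with means of 59.0, 54.3 and 35.8 RPKM. Neighbouring pairs in the order Cdh10, Cdh2, Cdh20 and Cdh19 had overlapping values over the 6 libraries. The neuronal type II members Cdh7, Cdh8, Cdh9 and Cdh12 stayed at or under 0.16 RPKM.

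**Figure D1:**
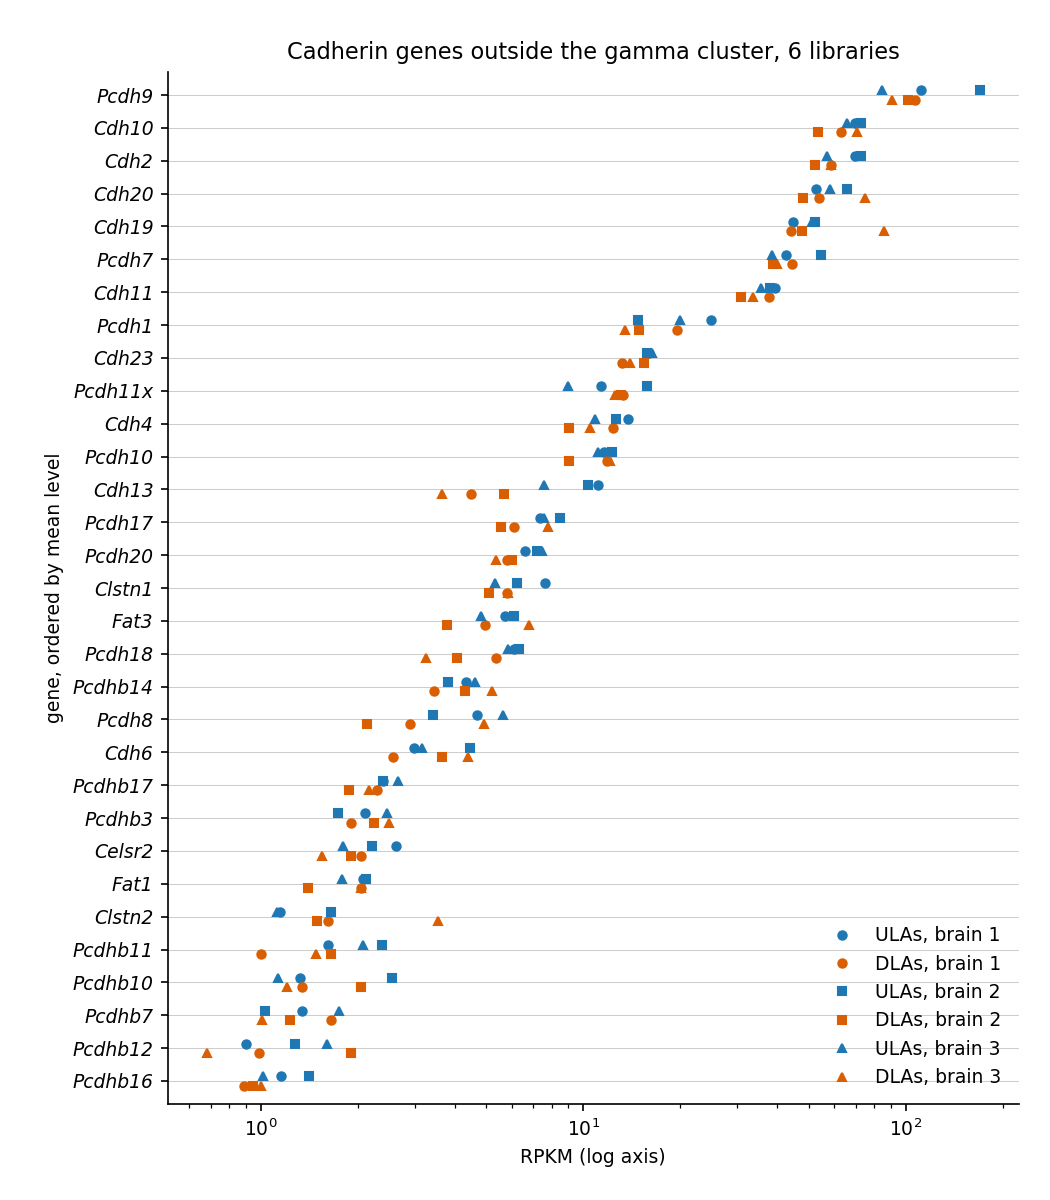
RPKM on a log axis of the 31 tested members outside the gamma cluster, 1 row per gene from the lowest mean (bottom) to the highest (top), with 1 point per library (blue for ULAs, orange for DLAs, marker shape for the brain). Cdh13 is the gene whose 3 ULA values, from 7.55 to 11.12 RPKM, stand clear of its 3 DLA values, from 3.66 to 5.68 RPKM, by the widest gap on the axis, and Cdh19 and Clstn2 each have 1 DLA value, that of brain 3, far to the right.

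The layers were compared with limma on log2(RPKM + 1), with the brain as a block and Benjamini-Hochberg adjustment over all 13999 tested rows. Differences are given as ULAs minus DLAs on that scale, which understates changes of low genes. A single member was called higher in ULAs at an adjusted p under 0.05 (limma), against 0.714% of all tested rows called in that direction, and 0 of 53 members were called higher in DLAs, against 0.914% of all rows. Within the family, 26 of 53 had an unadjusted p under 0.05, all higher in ULAs, and 22 of these are rows of the gamma cluster that share their reads, as described further on. Without that cluster it was 4 of 31, against 5.64% of all rows on the ULA side and 10.8% on the DLA side. No tested member was higher in DLAs in 3 of 3 brains, as 23.2% of all rows were, and for none did the DLA values all lie above the ULA values, as in 9.27% of all rows.

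The called member was Cdh13, also known as T-cadherin, an atypical cadherin that has no transmembrane or cytoplasmic part and is held to the membrane by a lipid anchor, where it also binds the hormone adiponectin. Its gene lies on chromosome 8 of build mm9 (chr8:120807655-121847348, plus strand) with 14 exons over 1040 kb. Cdh13 had 11.12, 10.37 and 7.55 RPKM in the ULAs and 4.48, 5.68 and 3.66 RPKM in the DLAs of brains 1, 2 and 3. Every ULA value lay above every DLA value, and the ratio within a brain was 2.48, 1.83 and 2.06. These values stand for 462 to 623 reads in ULAs and 248 to 273 reads in DLAs. The difference was 0.93 ± 0.13 on the log2 scale (SE, n = 3 brains, adjusted p = 0.0080, limma), and no reads came from the 2 rows lying inside its introns. Mean levels were 9.68 ± 1.88 RPKM in ULAs and 4.61 ± 1.02 RPKM in DLAs (SD, n = 3). The call did not survive the fit without the brain as a block (adjusted p = 0.118, limma) or a test over all rows with a value above 0 (adjusted p = 0.305, limma), where no row of the table was called. It passed under the other 9 alternatives run on it (adjusted p from 0.00012 to 0.018, limma). Vessel cells also express Cdh13. Of the 4 mural cell genes 2 were tested, and the pericyte gene Rgs5 was higher in ULAs, at 1.98, 2.06 and 2.70 RPKM against 1.01, 0.75 and 0.93 RPKM (difference 0.77 ± 0.16, adjusted p = 0.046, limma). The other tested gene of this list, Pdgfrb, had 19.84, 12.76 and 12.21 RPKM in ULAs and 16.91, 14.71 and 10.31 RPKM in DLAs. Its difference was 0.08 ± 0.13 (adjusted p = 0.79, limma). The summed RPKM of this list was 15.12 to 21.88 in ULAs and 11.24 to 17.92 in DLAs, Acta2 of smooth muscle was at most 0.30 and Kcnj8 of pericytes at most 0.02, and the endothelial sum was at most 1.99. The part of vessel cells in the difference of Cdh13 was not tested.

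The other atypical cadherin above 1 RPKM, Cdh23, which forms the tip links of sensory hair cells together with Pcdh15, had 16.04, 15.80 and 16.30 RPKM in ULAs and 13.21, 15.39 and 13.99 RPKM in DLAs, so that the groups did not overlap. Its span of 394 kb (chr10:59765498-60159238 in mm9, minus strand) encloses another gene on the opposite strand, listed as 4632428N05Rik and now called Vsir, which encodes an immune checkpoint protein. Of the 168 RPM credited to Cdh23, 158 were those of this enclosed gene, and 98% belonged to the 2 genes inside the span together. What was left amounted to 0.23 to 0.44 RPKM in ULAs and 0.22 to 0.37 RPKM in DLAs, under the minimum for a test. Pcdh15 itself had at most 0.07 RPKM. Among the 31 tested members outside the alpha and gamma clusters, 13 enclosed another row, and in the other 12 such rows held at most 8.85% of the reads (Pcdh10).

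**Figure D2:**
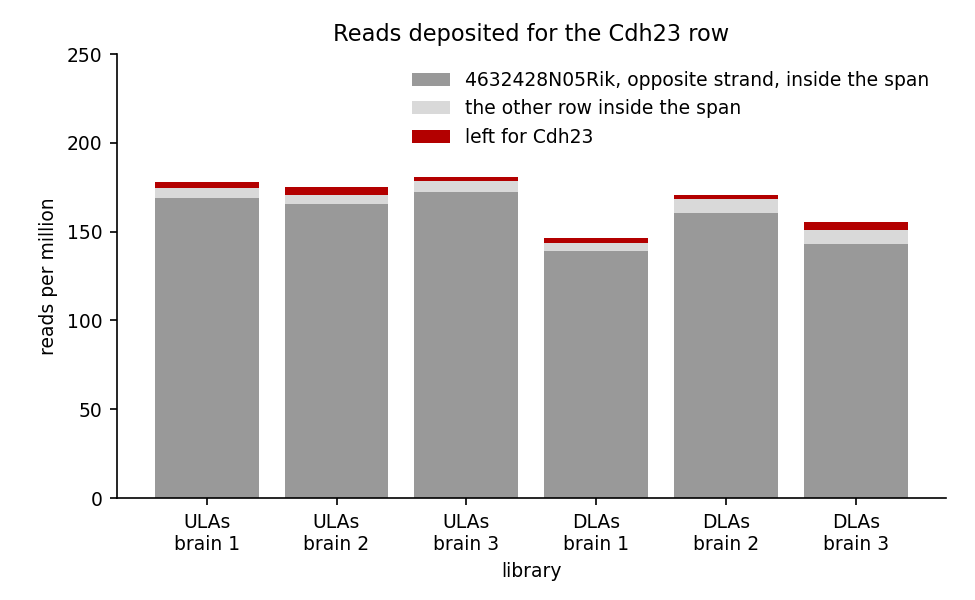
RPM credited to the Cdh23 row in each of the 6 libraries, split into those of 4632428N05Rik inside the span (grey), those of the other enclosed row (light grey) and the remainder (red). The remainder is a thin cap in every library, since the enclosed rows make up 98% of the column on average.

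The gamma protocadherin cluster gave the highest values of the family after Pcdh9. Its 22 rows (12 of the A type, 7 of the B type and C3, C4 and C5) lie within 180 kb on chromosome 18, and each is a variable first exon joined to the 3 shared constant exons at the end of the array. Their mean RPKM was 52.4 to 99.2. All 22 were higher in ULAs in 3 of 3 brains, as were 15.2% of all tested rows, and their ULA values all lay above their DLA values, as in 6.59% of all tested rows. The differences lay between 0.36 and 0.43 on the log2 scale with adjusted p from 0.061 to 0.094 (limma), so that none was called. Pcdhga1, the first and largest row, had 128.8, 100.8 and 106.9 RPKM in ULAs and 96.7, 79.6 and 82.5 RPKM in DLAs. Pcdhgc3, the row with the smallest adjusted p, had 98.80, 74.85 and 80.81 RPKM in ULAs and 72.25, 58.89 and 56.61 RPKM in DLAs, a difference of 0.43 ± 0.10 (SE, n = 3 brains). With quantile normalization all 22 passed (adjusted p from 0.024 to 0.033, limma), without brain 3 it was 5 and without brain 2 it was 1, so the call depended on the setting. Neurons express the cluster too. The summed RPKM of 8 neuronal genes was also higher in ULAs (8.98 to 10.24) than in DLAs (6.80 to 8.93). So was that of 5 microglial genes, most of it P2ry12, at 12.73 to 13.53 in ULAs and 8.58 to 11.59 in DLAs. Within a layer the neuronal sum did not follow the cluster. In brains 1, 2 and 3 this sum was 8.98, 9.24 and 10.24 in ULAs and 8.17, 8.93 and 6.80 in DLAs. The cluster was highest in the ULAs of brain 1 and lowest in the DLAs of brain 2. The microglial sum, like the cluster, was lowest in brain 2 in both layers. None of the 3 genes of these 2 lists that could be tested was called, the neuronal genes Tubb3 and Rbfox3 were at most 0.42 RPKM, Slc17a7 and Gad1 had higher means in DLAs (0.59 and 0.17 RPKM) than in ULAs (0.42 and 0.12 RPKM), the microglial gene Cx3cr1 at most 0.26 RPKM, and the part of these cells was not tested.

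These 22 rows are not 22 measurements. Because reads were counted from each variable exon to the common end of the cluster, each row contains all rows downstream of it. In 126 comparisons of neighbouring rows over the 6 libraries the downstream row never held more reads than the row before it. In the alpha cluster it did in 19 of 78 comparisons, by at most 0.038 RPM, and in 0 of 78 beyond the rounding of the printed values. The layer difference of the first row is therefore that of the cluster as a whole. The whole cluster held 584.4, 457.5 and 484.8 RPM in the ULAs and 438.9, 361.3 and 374.4 RPM in the DLAs of brains 1, 2 and 3. The 3 ULA values lay above the 3 DLA values, and the ratio within a brain was 1.33, 1.27 and 1.29.

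**Figure D3:**
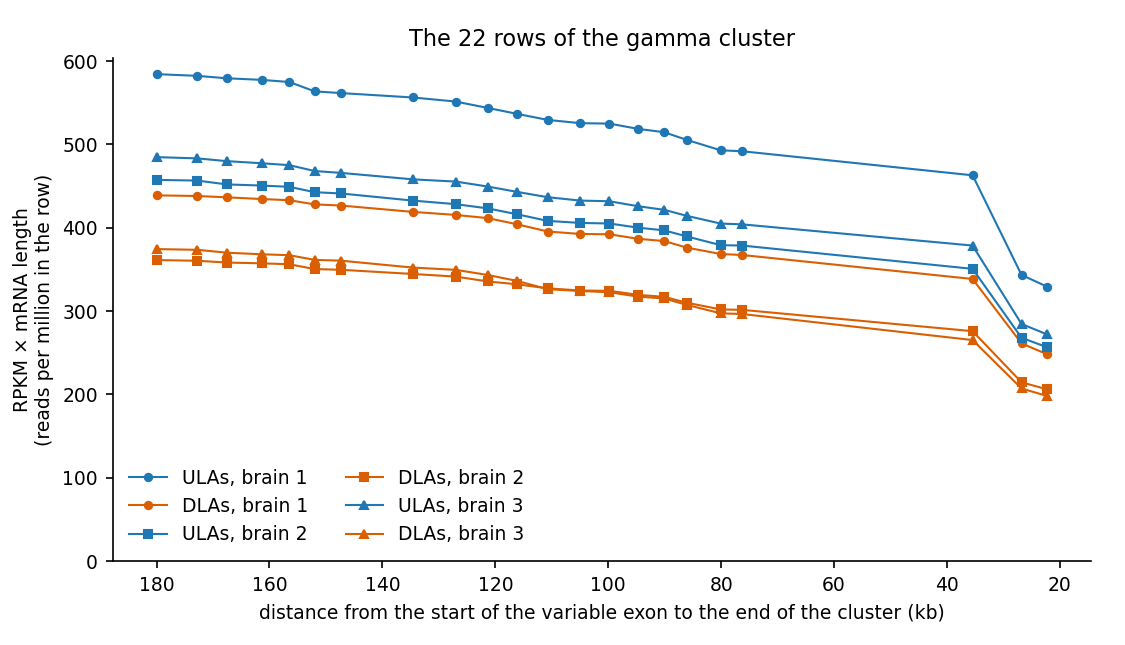
RPM in each of the 22 gamma rows against the distance from the start of its variable exon to the end of the cluster in kb, with 1 line per library (blue for ULAs, orange for DLAs, marker shape for the brain). The lines descend without a rise from left to right, drop most at the step after Pcdhgc3, and in each brain the blue line lies above the orange one along its whole length.

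Subtracting each row from the one before it gave the reads that lie between the starts of successive variable exons, which holds the variable exon itself and the sequence up to the next one. The largest such interval was that of Pcdhgc3, a C-type isoform which, in contrast to the A and B types, is known as one that many cells use at the same time. It held 119.6, 82.7 and 94.1 RPM in ULAs and 77.3, 61.4 and 58.1 RPM in DLAs. The next largest, that of Pcdhga12, held 28.9, 27.9 and 25.5 RPM in ULAs and 28.8, 25.6 and 31.3 RPM in DLAs, and the intervals of all 19 A- and B-type exons together held 111.4 ± 8.7 and 98.3 ± 12.1 RPM (SD, n = 3). Most reads of the cluster, 286.2 ± 38.3 RPM in ULAs and 217.7 ± 26.9 in DLAs, lay from Pcdhgc5 to the end of the constant exons, where isoforms cannot be told apart.

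The ratio between the layers was larger for the Pcdhgc3 interval than for the A and B intervals together in 3 of 3 brains. Within brains 1, 2 and 3 the ULAs to DLAs ratio was 1.55, 1.35 and 1.62 for Pcdhgc3, whereas that of the A and B intervals was 1.21, 1.25 and 0.97. Its share of the reads of the cluster was 20.46%, 18.08% and 19.41% in ULAs and 17.62%, 16.99% and 15.51% in DLAs, so that it was higher in ULAs in 3 of 3 brains and the groups did not overlap. For a single value such as this share, an exact paired permutation test over 3 brains cannot give a p under 0.25. The intervals then took the place of the cluster rows in the same fit over 13993 rows. They were scaled to the length of their first exon, except Pcdhgc5 with the constant exons, which was scaled to all exons of its row. In this fit 16 gamma intervals passed the minimum of 1 RPKM, 14 of them with a positive difference. One was called higher in ULAs, against 0.75% of all rows, and this was Pcdhgc3, with a difference of 0.57 ± 0.11 (SE, n = 3 brains, adjusted p = 0.029, limma). The call was lost without the brain as a block (adjusted p = 0.326, limma), with all rows above 0 (0.348), with no intensity trend (0.082) and without brain 1 (0.186), and passed under the other 6 settings. Pcdhgc5 with the constant exons had 0.39 ± 0.10 (adjusted p = 0.098, limma), and Pcdhga12 had -0.05 ± 0.13 (adjusted p = 0.88, limma). These intervals were defined after the values were seen.

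**Figure D4:**
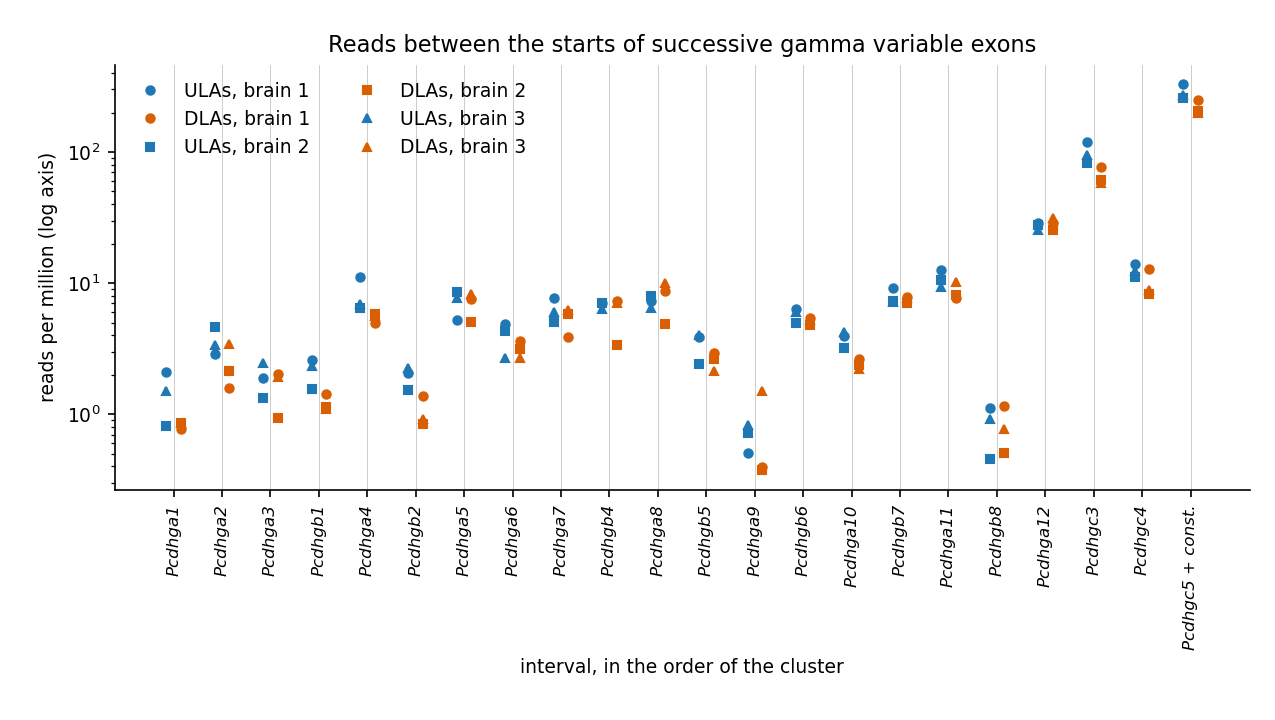
RPM, on a log axis, between the start of each gamma variable exon and the start of the next, in the order of the cluster, with 1 point per library (blue for ULAs, orange for DLAs, marker shape for the brain). The last position also holds the constant exons. Pcdhgc3 stands above all A- and B-type exons in every library, and its 3 ULA points, from 82.7 to 119.6, lie above its 3 DLA points, from 58.1 to 77.3.

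The alpha and beta clusters next to it held far fewer reads in total. The gamma total also counts introns and constant exons, which the beta total does not. The alpha cluster as a whole held 3.36, 5.04 and 4.15 RPM in ULAs and 2.99, 3.57 and 3.04 in DLAs, and its first row, Pcdha1, had at most 0.96 RPKM. Averaged over the libraries the gamma cluster held 122-fold more reads than the alpha cluster. The differences between neighbouring alpha rows were mostly within the rounding of the printed values, so most isoforms were not resolved. The intervals of Pcdha12 (0.25 to 0.97 RPM) and Pcdhac1 (0.23 to 0.77 RPM) were above the rounding in all 6 libraries. From Pcdhac2 to the end of the constant exons, which all isoforms share, lay 2.71 ± 0.82 RPM in ULAs and 1.25 ± 0.38 in DLAs (SD, n = 3). The beta cluster has 22 genes of 1 exon each and no constant exons, so its values stand alone. They summed to 78.9 ± 3.3 RPM in ULAs and 72.8 ± 5.3 in DLAs. The gamma A- and B-type intervals together held 111.4 and 98.3 RPM. Of the 22 beta genes, 8 were tested. Pcdhb14 was the highest, with 4.32, 3.82 and 4.63 RPKM in ULAs and 3.44, 4.29 and 5.22 RPKM in DLAs, and its groups overlapped (difference -0.01 ± 0.14). None of the 8 was called, and the lowest adjusted p was 0.28 (limma).

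All 4 delta1 protocadherins (Pcdh1, Pcdh7, Pcdh9 and Pcdh11x) and 4 of 5 delta2 protocadherins were tested and none was called. After Pcdh9, Pcdh7 had the highest level, with a mean of 43.2 RPKM. The highest delta2 level was that of Pcdh10, at 11.64, 12.27 and 11.09 RPKM in ULAs and 11.86, 9.05 and 12.10 RPKM in DLAs, with a difference of 0.09 ± 0.13. Its row was credited with 134 RPM, and a row that overlaps it in part, 1700027H10Rik, with 58.7 RPM, some of which Pcdh10 may hold as well. The delta2 members Pcdh18 and Pcdh8, chosen after their values were seen, came next after the gamma rows in the order of p-values. Pcdh18 had 6.10, 6.32 and 5.83 RPKM in ULAs and 5.38, 4.05 and 3.25 RPKM in DLAs, without overlap (difference 0.46 ± 0.15, adjusted p = 0.165, limma). Pcdh8, which is induced by activity in neurons, had 4.67, 3.43 and 5.65 RPKM in ULAs and 2.91, 2.13 and 4.91 RPKM in DLAs, higher in ULAs in every brain but overlapping between brains (0.40 ± 0.14, adjusted p = 0.209, limma). Pcdh20 had 6.62, 7.19 and 7.46 RPKM in ULAs and 5.81, 6.01 and 5.35 RPKM in DLAs, again without overlap (0.27 ± 0.13, adjusted p = 0.336, limma). It was the only 1 of the 3 remaining protocadherins above the minimum.

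For the classical cadherins no difference passed the test. Cdh2 had 0.23 ± 0.12 (adjusted p = 0.364, limma), Cdh4 0.21 ± 0.13 and Cdh10 0.16 ± 0.12 (adjusted p = 0.530, limma). Negative differences among the tested members were found for Cdh19, Clstn2, Pcdh11x, Pcdhb3 and Pcdhb14, and those of Cdh19 and Clstn2 were largest through the DLAs of brain 3. Without this brain Cdh19 had 0.07 ± 0.13 and Clstn2 had -0.10 ± 0.22. Cdh19, a type II cadherin known from glia of the peripheral nerve and the oligodendrocyte lineage, had 44.76, 52.28 and 51.40 RPKM in ULAs and 43.99, 47.88 and 85.57 RPKM in DLAs (difference -0.19 ± 0.15). Clstn2, a calsyntenin, had 1.15, 1.65 and 1.12 RPKM in ULAs and 1.62, 1.49 and 3.54 RPKM in DLAs (-0.43 ± 0.22, adjusted p = 0.357, limma). Cdh20 had 54.03, 48.19 and 75.01 RPKM in DLAs, with brain 3 again the highest. Most oligodendrocyte genes were also highest in this library. In the DLAs of brains 1, 2 and 3 Mog had 6.76, 9.14 and 12.95 RPKM, Mag 3.73, 6.62 and 8.01 RPKM, Mobp 2.98, 3.22 and 4.98 RPKM, Opalin 1.97, 2.73 and 6.28 RPKM and Cldn11 0.51, 0.70 and 1.57 RPKM. Mbp and Cnp were not, and the sum of the 7 genes was 120.2, 135.7 and 137.1 RPKM. Among the ULAs all 7 genes were highest in brain 3 too. In the ULAs of brains 1, 2 and 3 Mog had 1.43, 1.48 and 8.37 RPKM. Mag had 1.07, 1.66 and 5.66 RPKM and Opalin 0.40, 0.07 and 2.43 RPKM. Cdh20 had 52.65, 65.94 and 58.45 RPKM in these libraries. Cdh19, Clstn2 and Cdh20 were all lower in the ULAs of brain 3 than in those of brain 2. The part of oligodendrocytes in the values of Cdh19, Clstn2 and Cdh20 was not tested. Cdh19, Clstn2 and Cdh20 were chosen after their values were seen.

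Among the large cadherins of planar polarity, the highest Celsr gene was Celsr2, at 2.62, 2.22 and 1.8 RPKM in ULAs and 2.04, 1.90 and 1.55 RPKM in DLAs (difference 0.18 ± 0.15). Fat3 was the highest of the Fat and Dachsous genes, at 5.73, 6.10 and 4.82 RPKM in ULAs and 4.97, 3.77 and 6.80 RPKM in DLAs, with overlapping groups (0.11 ± 0.18). Clstn1, which links synaptic cargo to kinesin, was the highest calsyntenin, at 7.61, 6.24 and 5.32 RPKM in ULAs and 5.82, 5.11 and 5.83 RPKM in DLAs (0.16 ± 0.14, adjusted p = 0.618, limma). None of the 5 tested genes of these 3 groups was called.

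**Figure D5:**
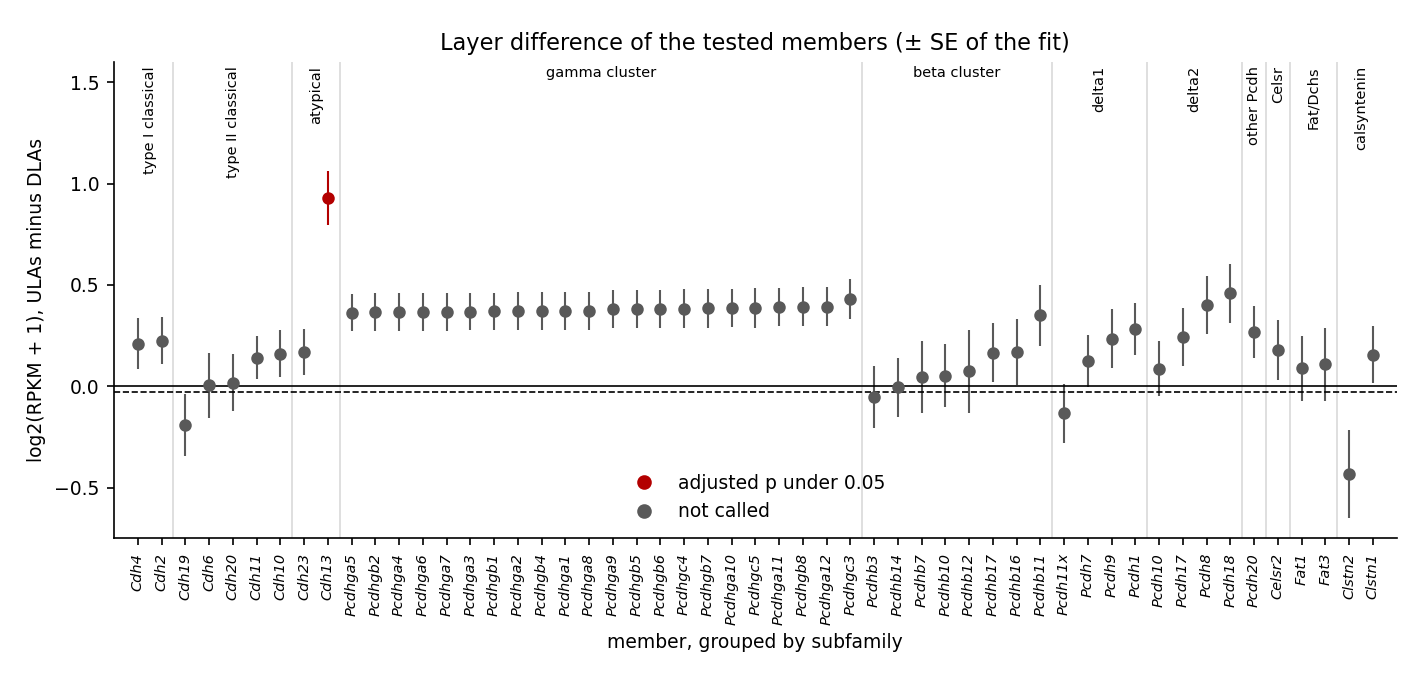
Difference between the layers (log2(RPKM + 1), ULAs minus DLAs) of the 53 tested members, grouped by subfamily, with the SE of the fit as bars and the median of all 13999 tested rows, -0.03, as a dashed line. Cdh13, in red, is the called member at 0.93. The 22 gamma rows form a plateau between 0.36 and 0.43 because they share their reads.

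Over the family the differences leaned to the ULA side, as did those of long mRNAs throughout the table. The members outside the gamma cluster and the long mRNAs leaned less without brain 2. The median was 0.28 over the 53 tested members and 0.16 over the 31 outside the gamma cluster, against -0.03 over all tested rows. Of these 31, 26 had a positive difference, against 45.0% of all rows, and 11 were higher in ULAs in 3 of 3 brains. Rows with mRNAs of 4000 bases or more had a positive difference in 70.4% of 3347 cases and a median of 0.09, and 26.8% of them were higher in ULAs in 3 of 3 brains. Of the 31 members, 17 are of that length. Without brain 2 the median was 0.09 over the 31 members, 20 of them with a positive difference, and 0.02 over the long mRNAs. Over all 53 tested members the median rose to 0.35 without this brain. After a correction of each brain for mRNA length the median of the 31 was 0.06 with 20 positive differences, and the gamma rows lay between 0.28 and 0.34 (adjusted p from 0.156 to 0.220, limma). Cdh13, at 2290 bases the shortest mRNA among the members, then had 0.96 (adjusted p = 0.016, limma).

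The genes that act with cadherins were compared in 7 lists written for this purpose. They held 65 genes in the table, of which 50 were tested, and none was called in either direction, with a lowest adjusted p of 0.161 and 4 unadjusted p-values under 0.05 (limma). Their median difference was 0.10, with 33 positive and 17 negative values. Among catenins, which tie cadherins to actin, Ctnnd2 (delta-catenin) had the highest value, at 182.8 ± 37.2 RPKM in ULAs and 170.6 ± 28.5 RPKM in DLAs (SD, n = 3). The desmosomal cadherins were all under the minimum, the highest being Dsc2 at no more than 0.17 RPKM. Among regulators of the protocadherin clusters, the cohesin subunit Smc3 was the highest, at 11.91 ± 0.53 RPKM in ULAs and 14.02 ± 1.57 RPKM in DLAs (difference -0.21 ± 0.11, adjusted p = 0.383, limma), and Ctcf, which sets the promoter contacts of the clusters and was chosen after its value was seen, had 9.70 ± 0.65 and 9.76 ± 0.66 RPKM. Among proteases that cleave cadherins the gamma-secretase subunit Ncstn led with 52.5 ± 5.5 and 47.7 ± 6.0 RPKM, among nectins and afadin Pvrl3 (nectin-3) with 7.18 ± 0.69 and 6.47 ± 2.44 RPKM, and among actin effectors Brk1, a WAVE complex subunit, with 94.98 ± 13.38 and 111.72 ± 13.02 RPKM (-0.23 ± 0.10, adjusted p = 0.276, limma). Fjx1, of the planar polarity list, which encodes a Golgi protein related to the fly kinase acting on Fat and Dachsous, had the lowest adjusted p. It had 281.6, 48.4 and 280.2 RPKM in ULAs and 367.3, 58.0 and 331.5 RPKM in DLAs of brains 1, 2 and 3, higher in DLAs in every brain (-0.29 ± 0.09, adjusted p = 0.161, limma), with both libraries of brain 2 far below the other 4.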

How the data were processed

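RNA of sorted ULAs and DLAs (3 brains, 6 libraries) was turned into cDNA by SMART-Seq v4, and Nextera XT libraries of it were sequenced from 1 end over 36 bases. The authors deposited RPKM values cut to 2 decimals for 43383 rows with exon positions. The submitters' processing notes name bcl2fastq 1.8.4, CASAVA 1.8.2 and mm9, whereas the counting program is not given in the sources used here. Depth was found from rows no longer than 500 bases, where a value is a multiple of that of 1 read and 100% of values came out as whole reads within the rounding, against at most 81.2% at the next best step. Intervals and limits from reads cover counting error only, since amplified reads are not independent molecules.

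Rows averaging 1 RPKM or more were tested with limma 3.58.1 in R 4.3.3 (lmFit, eBayes with a trend, 2-sided) on log2(RPKM + 1) with brain and layer as terms, and called at an adjusted p under 0.05. The replicate numbers were taken as brains, since same-numbered libraries deviated together from their layer means (r of 0.42, 0.33 and 0.34). Other pairs had r of -0.20 to -0.16, which is no separate evidence, because deviations from a layer mean cancel out within the layer. An exact test cannot give a p under 0.25 with pairs or 0.1 without. The RPM of a row is RPKM times mRNA length in kilobases. The members, partner lists and marker lists were chosen with earlier results of these data known. Named members were those called, the 12 highest, the 10 next by p-value and the highest of each subfamily, and named partners the highest of each list. The fit was tested on simulated data. Alternatives were no brain term, a pseudocount of 0.1, no filter, a minimum of 5 RPKM, quantile normalization, a length correction (loess, span 0.5), no trend, each brain left out, and each of the alpha and gamma clusters as 1 row. Intervals in place of cluster rows and the removal of enclosed rows were added after the data were seen. Tables and figures were made in Python 3.11.15 (pandas 2.3.3, numpy 2.4.6, matplotlib 3.10.9). No protein or DNA sequences were used. One gene of the oligodendrocyte list is not reported here and was left out of its sums and counts.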

Additional observations from a re-analysis of the deposited data

How the results depend on the processing

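The number of members called higher in ULAs was 1. It was 0 with no replicate block and 0 with no filter, 2 with a minimum mean of 5 RPKM, 23 with quantile normalization and 2 with cluster intervals, and it lay between 1 and 7 when each brain was left out, 7 without brain 3. Quantile normalization added the 22 gamma rows to Cdh13. It stayed at 1 with a pseudocount of 0.1, the length correction, no trend, 1 row per cluster and removal of enclosed rows. No member was called higher in DLAs and no partner gene in either direction under any alternative run. Over all rows, 100 were higher in ULAs and 128 in DLAs. With no replicate block these were 23 and 18, with no filter 0 and 0, and with no trend 65 and 79. Quantile normalization gave 138 in ULAs and 103 in DLAs, and the length correction gave 73 and 85. Leaving out each brain gave 96 to 431 in ULAs and 121 to 695 in DLAs, the highest without brain 3. With no replicate block Cdh13 kept its difference of 0.93 but had an adjusted p of 0.118 (limma).

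Of 298 values of 30 named members under alternatives, 262 kept direction and side of the threshold, 27 passed that had not, 2 no longer passed (both Cdh13) and 7 changed sign, none of these past the threshold. With the length correction Fat3 had -0.058 and Pcdh10 -0.063. When each brain was left out, Fat3 lay between -0.12 and 0.37, Pcdh10 between -0.070 and 0.19, Pcdh9 between -0.016 and 0.40, and Pcdhb14 between -0.14 and 0.063, the first 3 being lowest without brain 2. Pcdh9 passed without brain 3 (0.40, adjusted p = 0.047, limma).

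The limits are 3 brains, values that mix exon, intron and antisense reads, and 2 printed decimals, which leave intervals under about 0.13 RPM unresolved. The cause of the changes among settings was not tested.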

Other observations

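One row outside the symbols described in the report belongs to the same locus. It is listed as Pcdha4-g, has 4 exons and joins a variable exon of the alpha cluster to the constant exons of the gamma cluster, where it stops 1672 bases before the end of the gamma rows, so that it encloses none of them. It held 443.5, 392.5 and 395.4 RPM in ULAs and 355.1, 314.9 and 330.4 RPM in DLAs, in every library less than the first gamma row, Pcdhga1. Its RPKM was 155.3, 137.4 and 138.5 in ULAs and 124.3, 110.3 and 115.7 in DLAs, and the 3 ULA values lay above the 3 DLA values. Counted over its whole span, this row would hold reads of the beta genes, which it overlaps, and part of the gamma reads. Its layer difference is therefore not a measurement separate from that of the gamma rows.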
